A study of Mus musculus with 226 samples.

Results

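Single spiral ganglion neurons of the mouse cochlea fell into cells with abundant Fos transcript and cells with almost none, and this report compares the transcriptomes of these sides among the Wildtype cells. The cells were chosen on their measured Fos level. Cells with at least 100 CPM (the counts of a gene in a cell, scaled to a total of 1000000 gene counts) are called Fos-high and made up 71.5% of the Wildtype neurons: 42 of the 56 from the Apex, 68 of the 88 from the Middle and 23 of the 42 from the Base. The 45 cells below 10 CPM are called Fos-low (24.2%), and 8 cells lay between the limits (4.30%). The rest of the series is 40 neurons of Vglut3-/- mice. All were tdTomato-positive neurons picked singly by hand, and a polyA RNA library of each was made by Smart-seq2, which covers whole transcripts. Wildtype here means bhlhb5::cre/+; Ai14/+, and the Vglut3-/- mice carried the same Cre and reporter alleles, so every cell of both genotypes had expressed Cre recombinase under bhlhb5 control and the tdTomato reporter of Ai14. The mice were 25 to 27 days old (P25, P26 and P27). The Wildtype cells came from the Apex, Middle and Base of the cochlea, the low-, middle- and high-frequency turns, and the Vglut3-/- cells from the Middle. No animal, preparation or treatment is named for any cell, so each side counts as 1 sample, and no p-value is given. A difference was called when the pooled level of the higher side reached 10 CPM, 25% of that side's cells held a count, the log2 fold of pooled CPM + 1 was at least 1 in size, and the mean log2(CPM + 1) over cells differed by at least 0.5 on the same side.

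Fos encodes a subunit of AP-1, a dimeric transcription factor built from Fos, Jun and ATF family proteins. It belongs to the immediate-early genes, which neurons and other cells transcribe within minutes of depolarization, calcium entry, growth factor signalling or mechanical handling, without new protein synthesis. Their products include transcription factors (AP-1, Egr, Nr4a and Klf families), phosphatases and mRNA decay factors that end the response, and effectors that follow later. Type I spiral ganglion neurons carry sound signals from inner hair cells to the brain and are divided into the classes Ia, Ib and Ic, while the few type II neurons contact outer hair cells.

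The stretches before the start of 4 genes that were higher in Fos-high cells are shown. Such genes are commonly reached through cAMP response elements (CRE) and serum response elements. Besides that of Fos, the stretches shown hold a whole CRE or the CArG box of a serum response element. Most of the matched immediate-early genes followed below hold neither, so the genes shown do not represent the others. Each runs over the 250 bases before the gene's start in RefSeq on GRCm38.p6, on the gene's own strand. Capitals mark TGACG on either strand (the core of a CRE), the whole CRE TGACGTCA, TGANTCA (an AP-1 site) and the CArG box of the serum response element. A whole CRE always contains TGACG, so these marks overlap.
Fos (chr12:85473640-85473889, plus strand): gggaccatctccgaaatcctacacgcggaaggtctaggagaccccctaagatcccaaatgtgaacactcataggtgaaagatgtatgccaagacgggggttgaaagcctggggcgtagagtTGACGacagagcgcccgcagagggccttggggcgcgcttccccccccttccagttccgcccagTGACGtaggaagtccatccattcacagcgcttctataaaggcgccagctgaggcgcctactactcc
Btg2 (chr1:134079156-134079405, minus strand): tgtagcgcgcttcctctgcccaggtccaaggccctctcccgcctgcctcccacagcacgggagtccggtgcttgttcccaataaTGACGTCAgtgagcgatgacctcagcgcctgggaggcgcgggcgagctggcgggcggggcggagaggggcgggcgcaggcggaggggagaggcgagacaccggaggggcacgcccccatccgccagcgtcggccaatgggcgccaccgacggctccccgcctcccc
Dusp1 (chr17:26508473-26508722, minus strand): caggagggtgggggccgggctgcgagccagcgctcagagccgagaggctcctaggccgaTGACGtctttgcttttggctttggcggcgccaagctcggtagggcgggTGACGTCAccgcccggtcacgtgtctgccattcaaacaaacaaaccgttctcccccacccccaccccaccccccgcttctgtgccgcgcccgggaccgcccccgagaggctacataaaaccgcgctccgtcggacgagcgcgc
Zfp36 (chr7:28379229-28379478, minus strand): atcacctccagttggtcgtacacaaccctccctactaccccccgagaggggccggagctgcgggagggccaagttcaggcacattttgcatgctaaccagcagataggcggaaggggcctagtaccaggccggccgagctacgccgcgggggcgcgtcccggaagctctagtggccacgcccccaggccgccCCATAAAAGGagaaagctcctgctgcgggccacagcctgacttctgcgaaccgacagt
The Fos stretch holds TGACG at 2 places and none of the other marks. Bases outside these 250 were not searched for Fos or any other gene, so sites further away are not seen. The stretches of Btg2 and Dusp1 each hold a whole CRE, and that of Zfp36 holds a CArG box. Of 26 other immediate-early genes followed below, together with Fos, 22 of 27 were matched to a RefSeq start. Egr1, Ier2, Klf10, Bhlhe40 and Trib1 were not. A whole CRE lay before 2 of these 22 genes (9.09%), Btg2 and Dusp1, and a CArG box before 2 (9.09%), Zfp36 and Egr2. TGACG lay before 13 of the 22 (59.1%). It lay before 37 of 89 matched genes called higher in Fos-high cells (41.6%), 7 of 34 called lower (20.6%) and 2357 of 6953 matched genes tested (33.9%). Of all 27025 genes with such a window, TGACG lay before 19.8%, the whole CRE before 1.77%, TGANTCA before 7.82% and the CArG box before 1.62%. Counted over all 32851 windows, the shares were 17.8, 1.55, 6.75 and 1.47%. Of the 89 higher genes, 8 had a whole CRE (8.99%), compared with 3.57% of the genes tested. These are matches of letters in the window and nothing more.

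Fos itself, by which the cells were divided, is given as a description. In the Fos-high cells it ran from 100.4 to 3819 CPM with a median of 931 CPM, and 81.2% of these cells held at least 500 CPM. In the Fos-low cells 42 of 45 had no Fos count at all, and the other 3 held 0.384, 2.66 and 9.45 CPM. The values next to the limits were 98.7 CPM just below the upper limit and 100.4, 106.4 and 106.8 CPM just above it. At the lower limit they were 9.45 CPM below and 11.2 CPM above. Most cells therefore lay far from either limit, as the plot of Fos by turn and age shows.

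**Figure D1:**
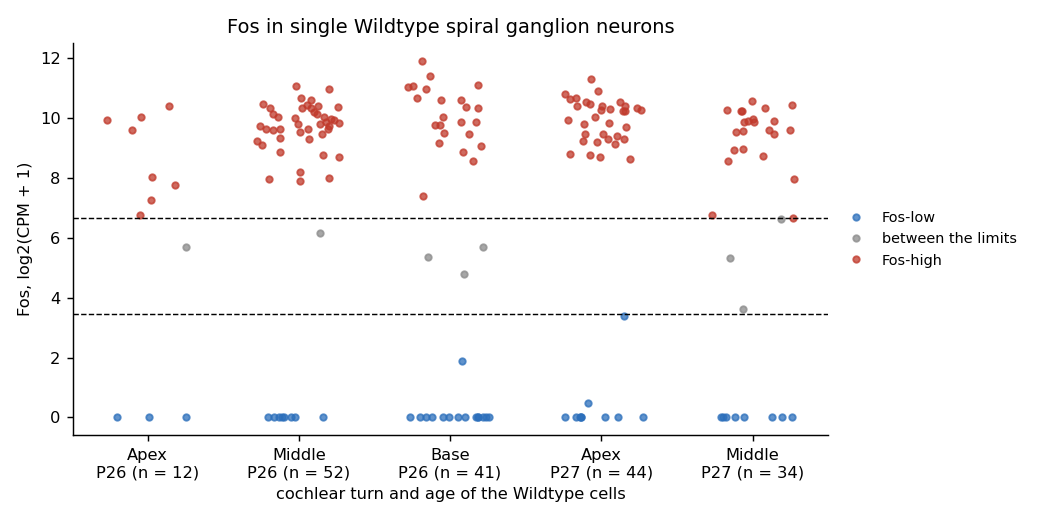
Fos in each Wildtype neuron of P26 and P27, as log2(CPM + 1), by cochlear turn and age. Points are cells, coloured by side, and dashed lines mark 10 and 100 CPM. In each turn and age most cells lie near the top or at 0 and at most 3 lie between the lines.

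The turns contributed unequally to the sides. Of the Fos-high cells 42 came from the Apex, 68 from the Middle and 23 from the Base, and of the Fos-low cells 13, 16 and 16. Put the other way, 75.0% of the Apex cells (42 of 56, exact Clopper-Pearson 95% interval 61.6 to 85.6%), 77.3% of the Middle cells (68 of 88, 67.1 to 85.5%) and 54.8% of the Base cells (23 of 42, 38.7 to 70.2%) were Fos-high. Within P26 alone the sides held 74 and 26 cells, with 5 between. Of these, 8, 43 and 23 Fos-high and 3, 8 and 15 Fos-low cells came from Apex, Middle and Base. The share of Fos-high cells at P26 was 82.7% in the Middle (69.7 to 91.8%) and 56.1% in the Base (39.7 to 71.5%), and those intervals overlap by little. The Apex gave 66.7% at P26 from 12 cells (34.9 to 90.1%). At P27, when 57 cells were Fos-high and 18 Fos-low, the Apex gave 77.3% and the Middle 67.6%. All intervals cover counting error only. All but 1 of the Base cells were of P26, and 44 of the 56 Apex cells were of P27. The shares over all ages therefore mix turn with age. Only those within P26 set the Base beside the other turns at the same age. P25 gave 3 Wildtype cells, 2 Fos-high and 1 Fos-low.

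Other properties of the cells moved with the side as well. At P26 the spike-in RNA, added in a fixed set of 92 controls, made up a median of 2.70% of counts in Fos-high and 0.995% in Fos-low cells. At P27 the order was the other way, with 3.76% and 6.09%. The tdTomato reporter had medians of 519 and 223.3 CPM at P26 and of 887 and 966 CPM at P27. Sex, read from Xist and Y-linked transcripts, was uneven at P26: 46 Fos-high cells had Y-linked transcripts and 23 had Xist, against 8 and 16 Fos-low cells. All sexed P27 cells had Xist. Median depth was 2523566 gene counts in Fos-high and 2804334 in Fos-low cells (604006 to 5186128 over both sides), and a median of 8376 and 8217 genes was detected. The part of spike-in share, reporter level and sex in the results was not tested beyond the values within strata given below.

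Both sides carried the markers of the labelled cell type. Tubb3, a neuronal tubulin, had counts in every Fos-high and every Fos-low cell, and the summed level of 12 neuronal genes had medians of 20584 and 20638 CPM. None of the 11 of these genes that were tested was called. Markers of macrophages, blood cells, fibroblasts and vessels were near 0 on both sides. Of 12 macrophage and blood genes, 9 had no count in either side, among them Cx3cr1, Aif1 and the haemoglobin genes, and the sum ran from 0 to 54.3 CPM in Fos-high and from 0 to 38.6 CPM in Fos-low cells. Of 12 fibroblast and vessel genes, 4 had no count (Col3a1, Pdgfra, Cldn5 and Rgs5), and the sums reached 22.4 and 12.2 CPM. Of 15 glial genes, 5 had no count, Sox10 among them. The glial sum ran from 1.50 to 1002 CPM with a median of 476 in Fos-high cells, and from 29.3 to 973 CPM with a median of 483 in Fos-low cells. Nearly all of it was S100b, at 471 and 432 CPM pooled. The hair cell genes Otof and Slc17a8 had no count in either side, and the hair cell sums, mostly Pvalb, had medians of 954 and 805 CPM (350 to 2088 and 352 to 1489 CPM). At P27 the glial list gene Cnp (-1.41) and the hair cell list gene Myo7a (-4.73) were called lower, and their part in the P27 results was not tested.

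Over all Wildtype cells, 122 of 8773 genes tested were called higher in Fos-high cells (1.39%) and 68 were called lower (0.775%). Within P26 alone 2.48% of 8760 genes tested were called higher and 1.4% lower. Within P27 the shares of 8957 genes tested were 3.59% (322 genes) and 3.73% (334 genes). The sets differ in their number of cells, so these shares were not compared between them. P26 and P27 share no cell. Of the genes called higher, 59 were common to both ages, 27.2% of those of P26 and 18.3% of those of P27. Of the genes called lower, 9 were common, 7.32% and 2.69%. Of the genes called higher at P26 10 were called lower at P27, and of those called lower at P26 8 were called higher at P27. Genes called higher over all Wildtype cells that also met the limits of the P26 repeat (log2 fold and mean difference of at least 0.5 on the same side) were 89.3% of the 122. All but 1 of them lay on the same side at P27. Of the 68 lower genes 48 met them, and 44 of those lay on the same side at P27. The P26 and P27 cells are part of the whole, so neither repeat is independent of it.

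**Figure D2:**
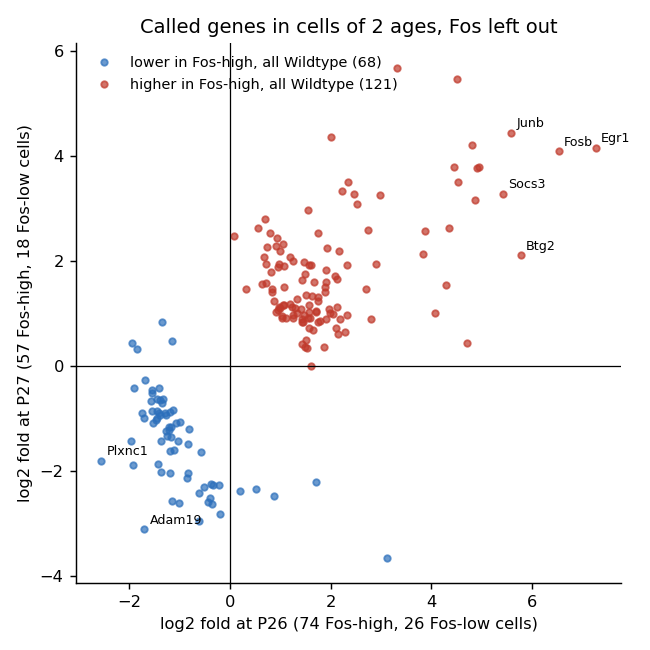
Log2 fold of pooled CPM + 1, Fos-high over Fos-low, at P26 (horizontal) and P27 (vertical) for the genes called over all Wildtype cells, with Fos left out. Points are genes. Higher genes (red) reach 7.27 at P26 for Egr1, where it is 4.17 at P27, and Klf10 lies at 4.72 and 0.44.

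The AP-1 subunits other than Fos were uneven, with 4 members far higher in Fos-high cells and most others too low to be tested. Of 11 listed, 4 were tested and all 4 were called higher over all Wildtype cells, at P26 and at P27, with medians of 4.65, 5.06 and 3.80 on the log2 scale. The median over all genes tested was 0.01 over all Wildtype cells. A gene was tested when its pooled level reached 10 CPM on either side. List members can therefore enter only through the side where they are high, which raises the medians of lists with such members. Over all 11 members, tested or not, the median was 0.78, against 1.96 for the 22 rapid transcription factors and 1.29 for the 28 feedback genes described below. Since the list was drawn up with earlier results of these data known, the count describes the list and is not evidence for it.

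Fosb, the closest relative of Fos, ranged from 0 to 677.9 CPM with a median of 98.9 in the Fos-high cells and from 0 to 35.3 with a median of 0 in the Fos-low cells. At least 10 CPM was found in 94.7% of the Fos-high cells and in 3 Fos-low cells, and 82.7% of the Fos-high cells exceeded the highest Fos-low cell. Pooled over cells, Fosb stood at 119.03 CPM (95% interval 117.9 to 120.2) in the Fos-high and 1.71 CPM (1.50 to 1.95) in the Fos-low cells, a log2 fold of 5.47. Its mean log2(CPM + 1) was 6.37 ± 1.70 (SD over the Fos-high cells) against 0.40 ± 1.20 (SD over the Fos-low cells). The sides overlapped only among the Fos-high cells of lowest Fosb. Junb, a Jun-family partner of Fos, ranged from 0 to 843.5 CPM with a median of 165.5 in the Fos-high cells and from 0 to 56.7 with a median of 0 in the Fos-low cells. Its pooled log2 fold was 5.14 (214.5 against 5.10 CPM), and 87.97% of the Fos-high cells lay above every Fos-low cell. Junb overlaps exons of Prdx2 on the other strand, and since the strand setting of the counting is not given, reads of both cannot be told apart. Atf3, a stress-inducible member of the ATF family, ranged from 0 to 1298 CPM with a median of 205.8 in the Fos-high cells and from 0 to 112.4 with a median of 0 in the Fos-low cells. It differed by 4.15 on the log2 scale (299.4 against 15.9 CPM), and 14 Fos-low cells held at least 10 CPM, so the sides overlapped more than for Junb.

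Jun behaved differently from these. It ranged from 0 to 1194 CPM with a median of 360.4 in the Fos-high cells and from 0 to 387.5 with a median of 102.2 in the Fos-low cells, and 40 of 45 Fos-low cells held at least 10 CPM. The pooled level was 378.04 CPM (95% interval 375.99 to 380.1) in the Fos-high and 113.3 CPM (111.4 to 115.1) in the Fos-low cells, a log2 fold of 1.73. Fos-low neurons thus carried Jun transcript in most cells, whereas at least 10 CPM of Fosb was found in 3 of them. Of the subunits too low to be tested, Fosl2 had counts in 38 Fos-high cells and 1 Fos-low cell (6.66 against 0.108 CPM). Jund, which is usually present without stimulation, had counts in 97.7% of the Fos-high cells and in 42 Fos-low cells, at 8.87 against 5.67 CPM. Fosl1, Batf, Batf2, Batf3 and Jdp2 were at 3.75 CPM or less in both sides.

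**Figure D3:**
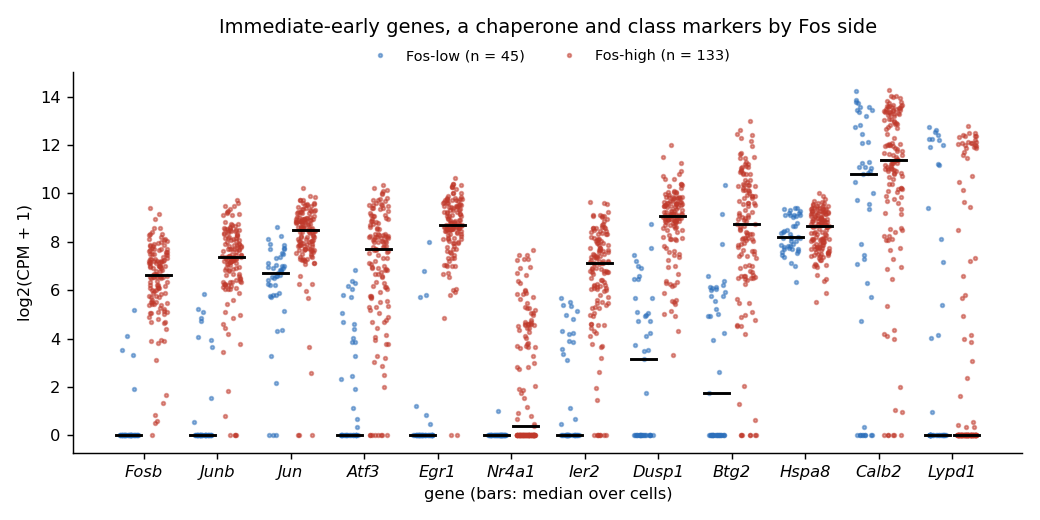
Log2(CPM + 1) of 12 genes in each Fos-low (blue, n = 45) and Fos-high (red) Wildtype cell; bars are medians over cells. The first 9 genes are immediate-early genes and lie higher in Fos-high cells. The chaperone Hspa8, the Ia marker Calb2 and the Ic marker Lypd1 overlap over most of their range.

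Among 22 rapid immediate-early transcription factors, 15 were tested, 11 were called higher and none lower, with a median log2 fold of 2.58. At P26 12 of 14 and at P27 10 of 15 were called higher, with medians of 3.95 and 1.66. The shares of all tested genes called higher were 1.39% over all Wildtype cells, 2.48% at P26 and 3.59% at P27. Members could enter the test only through the side where they are high, and over all 22 the median was 1.96. Egr1, a zinc-finger factor induced together with Fos in many neurons, ranged from 0 to 1602 CPM with a median of 411.1 in the Fos-high cells and from 0 to 250.9 with a median of 0 in the Fos-low cells. At least 10 CPM was found in 98.5% of the Fos-high cells and in 4 of 45 Fos-low cells. The pooled levels were 498.3 CPM (95% interval 495.97 to 500.7) in the Fos-high and 9.35 CPM (8.84 to 9.90) in the Fos-low cells, a log2 fold of 5.59. The 3 Fos-low cells with the most Egr1 held 92.4% of the counts of that side, and the log2 fold was 7.27 at P26 and 4.17 at P27. Egr2 had counts in 56 Fos-high cells and in no Fos-low cell. At 22.7 CPM it was at least 985-fold higher than the 3 counts over the Fos-low cells that a count of 0 allows. Egr3 and Egr4 were at 0.0727 CPM or less.

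The orphan nuclear receptor gene Nr4a1 had counts in 67 Fos-high cells and 1 Fos-low cell, at 22.6 CPM (95% interval 22.1 to 23.1) in the Fos-high and 0.0231 CPM (0.00476 to 0.0674) in the Fos-low cells. Its relatives were rare: Nr4a3 had counts in 26 Fos-high cells and no Fos-low cell (2.95 CPM in the Fos-high cells), and Nr4a2 in 2 and 0. Ier2 ranged from 0 to 802.2 CPM with a median of 136.9 in the Fos-high cells and from 0 to 50.1 with a median of 0 in the Fos-low cells, with a log2 fold of 4.43. Npas4, a factor known for its dependence on calcium entry in neurons, had counts in 74 Fos-high and 4 Fos-low cells, at 22.5 against 1.94 CPM (3.00 on the log2 scale). Thus Egr1 and Ier2 were carried by nearly every Fos-high cell, and Egr2, Nr4a1 and Npas4 by a part of them.

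The Krüppel-like factors Klf4, Klf6 and Klf10 differed by 2.78, 2.58 and 1.93 on the log2 scale over all Wildtype cells. Their folds were smaller at P27 (1.54, 1.01 and 0.44) than at P26 (4.29, 4.06 and 4.72), a difference between ages that was not tested. Klf10 was not called at P27 and stood at 19.001 against 20.8 CPM in the Ic-like cells. Bhlhe40, a repressor induced by many stimuli, was present on both sides, in 98.5% of the Fos-high cells and in 33 Fos-low cells, at 129.4 against 28.03 CPM (2.17). Nfil3 and Csrnp1 differed by 2.06 and 2.80. Irf1, an interferon-regulated factor outside this list, had counts in 77 Fos-high cells and 1 Fos-low cell, at 35.9 against 0.269 CPM. The 4 tested factors that were not called were Srf (10.6 against 5.14 CPM), Per1, Crem and Myc, with log2 folds from -0.25 to 0.95.

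The genes that end the immediate-early response followed the same direction. Of 28 listed feedback and mRNA decay genes, 16 were tested, 12 were called higher and none lower, with a median log2 fold of 1.63. By age, 11 of 15 were called higher at P26 and 12 of 16 at P27. Among all tested genes 1.39% were called higher over all Wildtype cells, 2.48% at P26 and 3.59% at P27. The median over all 28 members, tested or not, was 1.29. Dusp1, a phosphatase that inactivates MAP kinases, ranged from 9.09 to 4054 CPM with a median of 533.9 in the Fos-high cells and from 0 to 430.6 with a median of 7.79 in the Fos-low cells. It was at 646.2 CPM (95% interval 643.5 to 648.9) in the Fos-high and 35.8 CPM (34.8 to 36.9) in the Fos-low cells, a log2 fold of 4.13, and 67.7% of the Fos-high cells exceeded the highest Fos-low cell. It overlaps exons of Ergic1 on the other strand. Btg2, an antiproliferative cofactor of mRNA deadenylation, ranged from 0 to 8025 CPM with a median of 421.5 in the Fos-high cells and from 0 to 1294 with a median of 2.39 in the Fos-low cells. Its pooled level was 1056 CPM (95% interval 1053 to 1059) in the Fos-high and 56.9 CPM (55.6 to 58.2) in the Fos-low cells, a log2 fold of 4.19 over all cells, 5.78 at P26 and 2.11 at P27. A Fos-low cell of the P27 Apex reached 1294 CPM, and 23.3% of the Fos-high cells lay above it. That cell was type II-like by the clusters described below and held 9.45 CPM of Fos. It also had the most Egr1 of the Fos-low cells, 250.9 CPM.

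Zfp36, which binds AU-rich elements and speeds mRNA decay, had counts in 87 Fos-high and 5 Fos-low cells (23.8 against 0.392 CPM, 4.16 on the log2 scale). Socs3, an inhibitor of cytokine receptor signalling, had counts in 72 Fos-high cells and in 1 Fos-low cell of P27, which alone gave the Fos-low level (38.2 against 0.876 CPM). Both genes were at 0 in most Fos-low cells. Gadd45b and Gadd45g, stress and growth-arrest genes, differed by 3.11 and 2.20. Gadd45g was present on both sides, in 98.5% of the Fos-high cells and in 42 Fos-low cells, at 215.7 against 46.02 CPM. Trib1, Tiparp, Nfkbia, Dusp14 and Btg1 differed by 2.63, 1.77, 1.48, 1.44 and 1.33. The 4 tested genes of the list that were not called were Spry2, Spred1, Gadd45a and Rgs2, with log2 folds from -0.74 to 0.46.

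The genes listed as delayed effectors of neuronal activity were mostly too low to be judged. Their median log2 fold was 1.05 over the members tested and 0.37 over all 25 listed. The name of the list sets no time of induction, as its members Arc and Cyr61 also count as immediate-early genes. Calls in this list therefore do not mark a later response. Of 25 listed, 8 were tested and 4 were called higher over all cells and at both ages. These were Arc, which acts in the trafficking of glutamate receptors, the orphan receptor gene Gpr3, Sertad1 and Cyr61. Among all tested genes 1.39% were called higher over all Wildtype cells, 2.48% at P26 and 3.59% at P27. Arc had counts in 59 Fos-high and 8 of 45 Fos-low cells, at 29.4 against 8.21 CPM, a log2 fold of 1.72. Gpr3 stood at 26.2 against 4.31 CPM (2.36). Nrn1, Homer1, Ctgf and Scg2 were not called, and Nrn1 was at 240.6 against 241.3 CPM. Bdnf, a classical target of activity in cortical neurons, had counts in 26 and 3 cells and stayed below 10 CPM on both sides. Nptx2 had counts in 1 cell of each side, and Ptgs2 and Inhba in none.

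**Figure D4:**
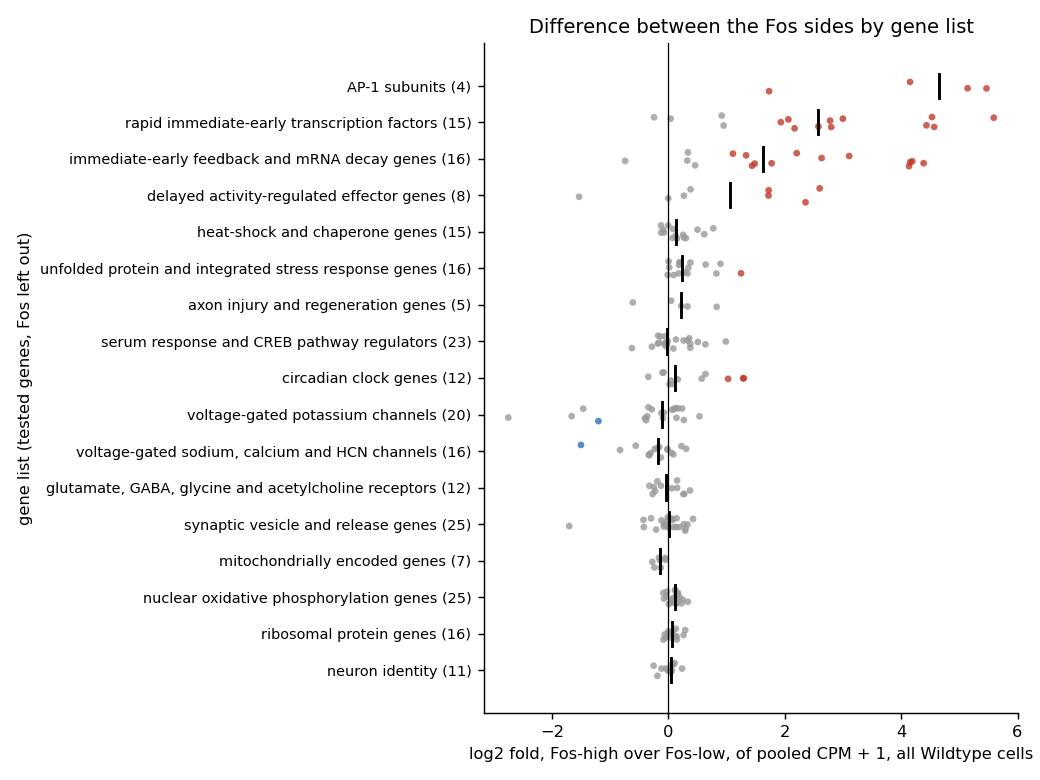
Log2 fold of pooled CPM + 1, Fos-high over Fos-low, for each tested gene of the 17 lists with at least 4 tested genes, over all Wildtype cells, with Fos left out. Points are genes, red when called higher, blue when called lower and grey when not called, and bars are list medians. The medians of the first 4 lists lie at 1.05 or more and those of the others drawn lie between -0.17 and 0.23. Genes are drawn if either side reached 10 CPM, so some are present only through the side where they are high.

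Stress programmes outside the immediate-early genes had list medians between 0.12 and 0.23 on the log2 scale over all Wildtype cells. None of 15 tested heat-shock and chaperone genes was called (median 0.12), and with 1.39% of all tested genes called higher a count of 0 is near the background. At P26 1 of 16 was called higher, Hspa2, a chaperone of the HSP70 family (1.57, and 0.08 at P27), and at P27 none of 16. Hspa8, the constitutive chaperone, was at 419.6 against 352.2 CPM. The inducible gene Hspa1a stayed below 10 CPM on both sides (5.48 against 9.35 CPM). Of 16 tested genes of the unfolded protein and integrated stress responses only Ddit3, a transcription factor of that response, was called (59.7 against 24.6 CPM, 1.25), and Atf4, which acts before it, stood at 147.3 against 82.8 CPM, not called over all cells or at P26 (0.64) but called higher at P27 (1.16). The list had 1 of 15 called higher at P26 and 2 of 16 at P27, where 2.48 and 3.59% of all tested genes were called higher. None of 5 tested axon injury genes was called over all cells. Within ages Sox11 was called higher at P26 (1.09, and 0.24 at P27) and Flrt3 lower at P27 (-1.73, and 0.14 at P26). Sprr1a, a standard marker of axon injury, had no count on either side. The regulators that act before immediate-early transcription in the serum response and CREB pathways gave 0 calls of 23 tested over all Wildtype cells (median -0.03), 1 higher of 23 at P26 and 2 higher of 23 at P27. Elk4, which encodes an Ets-family partner of serum response factor, was called higher at both ages, with log2 folds of 1.27 at P26 and 1.21 at P27 (12.4 against 5.79 CPM over all cells, 0.98), and Mkl2 at P27 (1.54). Creb1 stood at 45.6 against 71.1 CPM.

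Genes of neuronal function had medians near 0 over all Wildtype cells, with some calls within single ages, where 3.73% of all tested genes were called lower at P27. Of 25 tested synaptic vesicle and release genes none was called (median 0.01), nor of 12 transmitter receptors (-0.04), 7 mitochondrially encoded genes (-0.15), 25 nuclear oxidative phosphorylation genes (0.11) or 16 ribosomal protein genes (0.07). At P27 the synaptic genes Syt1 (-1.38) and Vamp2 (-1.11) were called lower, 2 of 25, and the receptors Grm8 (-1.87) and Grin2c (-2.42), 2 of 15 (median -0.30). At P26 1 of 14 receptors was called higher, Chrna4 (1.48), where Grm8 was 1.32. Grm8 is also among the markers used below to name Ic-like cells. Those cells made up 17.5% of the Fos-high and 44.4% of the Fos-low cells at P27, and 23.0% and 15.4% at P26. The part of class makeup in the Grm8 folds was not tested. Of 20 tested voltage-gated potassium channel genes 1 was called, Kcnd1, which encodes an A-type channel subunit. Kcnd1 was lower in Fos-high cells, at 12.6 CPM (95% interval 12.3 to 13.01) in the Fos-high and 30.4 CPM (29.5 to 31.4) in the Fos-low cells, a log2 fold of -1.21. At P26 with a spike-in share of at least 2% its log2 fold was 0.38, so this difference did not hold there. Of 16 sodium, calcium and HCN channel genes 1 was called, Scn2b, which was lower in Fos-high cells (91.1 against 260 CPM) with log2 folds of -0.53 at P26 and -2.31 at P27. At P27 4 of 19 genes of this list were called lower, Scn2b, Scn3a, Scn9a and Cacna2d2 (median -0.41), and at P26 Scn3a was called higher (1.56, against -1.35 at P27). The potassium channel list had 1 called higher and 2 lower of 21 at P27. Of 12 tested clock genes 3 were called higher, Per2, Ciart and Bhlhe41 (2 of 13 at P26, 3 of 11 at P27). The shares of all tested genes called higher were 1.39% over all Wildtype cells, 2.48% at P26 and 3.59% at P27. Bhlhe41, a relative of Bhlhe40, was at 439.7 against 178.8 CPM (1.29), with 1.64 at P26 and 0.68 at P27.

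Immediate-early genes were present together in single cells. A set of 26 of them, all called higher, was counted in each cell at 10 CPM or more. Fos-high cells held 6 to 25 of the 26 with a median of 19, Fos-low cells 3 to 12 with a median of 7, and the 8 cells between the limits 6 to 17 with a median of 10.5. At least 13 of the 26 were present in 92.5% of the Fos-high and in 0 of 45 Fos-low cells. The ranges overlapped, since 10 Fos-high cells held no more than the highest Fos-low cell. The set was chosen from genes called in these cells, so the separation is a description of it. The Fos-low cells with the most, 12 genes each, were an Ib-like and an Ic-like cell of the Middle at P27, with 0 Fos counts among 3378983 and 3004429 gene counts.

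**Figure D5:**
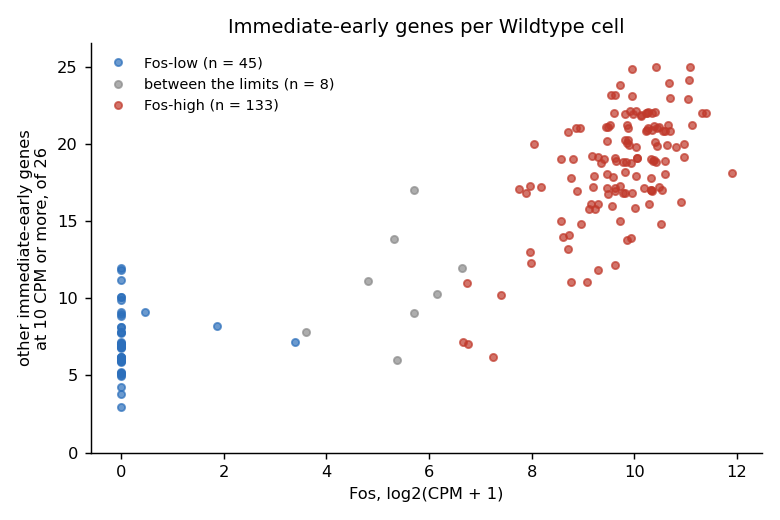
Number of 26 immediate-early genes at 10 CPM or more (vertical) against Fos as log2(CPM + 1) (horizontal) in each Wildtype cell, coloured by side. Fos-low cells hold 3 to 12 and Fos-high cells 6 to 25, and the 8 cells between the limits hold 6 to 17.

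Within the Fos-high cells the level of Fos varied with that of some immediate-early genes and not with others. Spearman's rho with Fos CPM was 0.62 for Atf3, the highest of the 26, 0.60 for Ier2 and Junb, 0.59 for Btg2 and Dusp1, 0.56 for Egr1 and 0.48 for Fosb. Among all genes tested the 5th and 95th percentiles of rho were -0.16 and 0.17, and rho with total gene counts was 0.05. Of the 26 genes 19 lay above that 95th percentile and 7 did not: Npas4 (0.05), Tiparp (0.09), Gadd45b (0.10), Klf10 (0.12), Nfkbia, Btg1 (both 0.13) and Nr4a1 (0.14). These are correlations across cells that share libraries' depth and unnamed animals, and they are given without a test. The 26 genes were chosen as called higher in these same cells, which were divided by Fos. How many of them pass the percentile is therefore a description and no evidence for the set. In the 8 cells between the limits 18 of the 26 genes had a pooled level between those of both sides, among them 45.8 CPM for Egr1, 27.2 for Junb, 8.77 for Fosb and 63.7 for Dusp1. The other 8 were at or below the Fos-low level, among them Ier2 (7.33 against 7.66 CPM), Bhlhe40 (20.2 against 28.03 CPM), Nfil3 (5.03 against 12.2 CPM) and Egr2, which had no count in either.

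The difference in Fosb was seen within each turn and age that held at least 8 cells on both sides. Other immediate-early genes are given for some of these sets, and Klf10 was not called at P27 as a whole. These sets are part of the cells in which the genes were called, so their values are a description. At P26 the log2 fold of Fosb was 7.18 in the Middle (43 against 8 cells) and 6.32 in the Base (23 against 15 cells). For Junb it was 7.61 and 5.47, and for Dusp1 5.53 and 5.09. At P27 Fosb gave 4.46 in the Apex (34 against 10) and 3.58 in the Middle (23 against 8). Btg2 was less even at P27, with 1.48 and 4.26. The Fos-low side of the P27 Apex held 4 type II-like cells (classes are described below), among them the cell with the most Btg2. Their part in this fold was not tested. Within P26 cells with Y-linked transcripts and within those with Xist, the log2 fold of Fosb was 7.13 and 6.45, and that of Junb 4.39 and 6.81. Within P26 cells with a spike-in share below 2% and of at least 2% Fosb gave 6.33 and 7.08, and Junb 5.39 and 7.69.

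Both sides contained all classes of neuron. Cells were clustered and named from markers (Calb2 and Pcdh20 among those of Ia, Calb1, Ttn and Lrrc52 of Ib, Lypd1 and Pou4f1 of Ic, Th and Gata3 of type II). Of the Fos-high cells 46 were Ia-like, 56 Ib-like, 28 Ic-like and 3 type II-like, and of the Fos-low cells 14, 15, 12 and 4. Fos-high shares were 74.2% of Ia-like (61.5 to 84.5%), 75.7% of Ib-like (64.3 to 84.9%) and 65.1% of Ic-like cells (49.1 to 79.0%), with overlapping intervals. At P27 the sides differed in makeup, as the Fos-low side held 0 Ia-like, 6 Ib-like, 8 Ic-like and 4 type II-like cells. Calb2 was 3908 against 554.2 CPM at P27, 5164 against 6126 CPM at P26 and 4599.8 against 4005 CPM over all cells, and Lypd1 was 676.7 against 2269.6 CPM at P27. The part of this makeup in the P27 calls was not tested. Over all cells the Ib markers Ttn and Lrrc52 were called higher in Fos-high cells, with log2 folds of 1.34 and 1.06. Ttn was also called higher at both ages. The Ib markers Calb1 and Trim54 and the markers used for Ia, Ic and type II were not called over all cells.

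Most immediate-early genes were higher in the Fos-high cells of each class, by unequal amounts. Of the 26 followed, 26 had a log2 fold of at least 1 in Ia-like, 25 in Ib-like and 25 in Ic-like cells, with medians of 3.53, 3.86 and 3.73. The 26 were chosen as called higher over all Wildtype cells, and each class is a part of those cells. High counts therefore follow in part from that choice and are a description. Of all genes tested, 4.21, 4.42 and 5.42% were called higher in these classes, by limits stricter than the fold alone. Fosb differed by 6.91 in Ia-like, 5.25 in Ib-like and 5.04 in Ic-like cells on the log2 scale, and Junb by 5.13, 5.11 and 5.75. Egr1 ran from 4.90 in Ib-like to 9.12 in Ic-like cells, and Klf10 from 4.94 to -0.12. Differences between classes were not tested. The clusters inside a class differed in their share of Fos-high cells. One Ia-like cluster held 36 Fos-high and 0 Fos-low cells and another 5 and 13. One Ib-like cluster held 50 and 1 and another 6 and 14. The Ic-like cells formed 1 cluster with 28 and 12. With the immediate-early, heat-shock and AP-1 genes left out of clustering, the main Ia-like clusters held 30 and 4, and 12 and 9, and the Ib-like clusters 39 and 12, and 15 and 2. The clusters were built on genes that include those compared, so their Fos makeup is a description.

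Genes called lower in Fos-high cells formed no listed group and were less even across sets. The 12 with the largest folds were Plxnc1, Adam19, Zfp626, Zfp128, Adora1, R3hcc1l, Cnot6l, Zfp930, 2810021J22Rik, Ftx, 4930563E22Rik and Myom3. All 12 were low or absent in many cells of both sides. Plxnc1, a semaphorin receptor, had counts in 21 Fos-high and 21 of 45 Fos-low cells, at 3.39 CPM (95% interval 3.20 to 3.59) in the Fos-high and 16.4 CPM (15.7 to 17.1) in the Fos-low cells, a log2 fold of -1.99. It was lower at P26 (-2.56) and at P27 (-1.80), but 0.56 in Ib-like cells. Zfp930, a zinc-finger gene, was the most abundant, with counts in 74 and 31 cells at 36.4 CPM (95% interval 35.7 to 37.02) in the Fos-high and 93.5 CPM (91.8 to 95.1) in the Fos-low cells, a log2 fold of -1.34. Adora1, the adenosine A1 receptor gene, was -1.84 at P26 and 0.33 at P27. Cnot6l, a deadenylase subunit, was -1.95 and 0.45. Adam19, a metalloproteinase gene, had counts in 6 Fos-high and 12 Fos-low cells. Ftx, a noncoding gene beside Xist, was 7.19 against 25.6 CPM, and its log2 fold within P26 cells with Xist was -1.10. When the cell with the most counts of a gene was left out of the higher side, 86.1% of the 122 higher genes and 33 of the 68 lower genes (48.5%) kept a log2 fold of at least 1 in size. That cell held a median of 6.82% of the side's counts for higher genes and 19.5% for lower genes.

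The same division was present in the Vglut3-/- neurons, which lack the transporter that loads glutamate into inner hair cell vesicles. Of 40 such cells, all from the Middle, 24 were Fos-high, 15 Fos-low and 1 between, a share of 60.0% (43.3 to 75.1%), against 77.3% of Wildtype Middle cells (67.1 to 85.5%). Those intervals overlap, and animals are not named, so no difference can be tested. The ages also differed, as 25 of the 40 Vglut3-/- cells were of P27 and 52 of the 88 Wildtype Middle cells of P26. Within P27, 14 of 25 Vglut3-/- cells and 23 of 34 Wildtype Middle cells were Fos-high. The part of age in these shares was not tested. In the Vglut3-/- cells Fosb stood at 119.8 against 1.09 CPM, Egr1 at 431.9 against 2.79 CPM and Dusp1 at 662.4 against 2.55 CPM. Fos-high cells held 8 to 22 of the 26 immediate-early genes (median 17) and Fos-low cells 4 to 9 (median 6). Of the lower genes, Plxnc1 went the other way, at 8.02 against 0.821 CPM.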

How the data were processed

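Counts per gene, deposited by the authors for all neurons, were used as they stand. The submitters' processing notes list mm10 as the genome build and name STAR 2.4.0, featureCounts from Subread 1.4.6, Trimmomatic 0.33, Seurat 1.4.0.12 and edgeR 3.14.0. Annotation, strandedness and the handling of multi-mapping reads: not given in the sources used here. After removal of 92 spike-in rows and the TdTomato row, 24491 genes remained, and CPM was taken on their sum. The deposited normalized values were not used.

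The counts of all cells on a side were added up, with exact Poisson 95% intervals that cover counting error only; a cell's reads are not independent molecules, since Smart-seq2 has no molecular identifiers. Shares of cells have exact Clopper-Pearson 95% intervals. Log2 folds add 1 CPM to both sides. Genes named are 12 per side, ranked by the fold averaged over the comparisons of all Wildtype and of P26 cells, list members that met the limits of the P26 repeat, the AP-1, Egr and Nr4a families and the class markers. Other genes were named after their values were seen. The members and lists were chosen with earlier results of these data known. Cells were clustered with scanpy 1.11.5 (2000 variable genes without the markers, 10 components, 10 neighbours, Leiden resolution 1). Cells were picked by hand, so no doublet caller was run. The procedure was tested on simulated data with known changes. Alternative scalings were the trimmed mean of M-values and median ratios over 1085 genes (edgeR 4.0.16 in R 4.3.3). GENCODE M21 gave positions and overlapping exons.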

Additional observations from a re-analysis of the deposited data

Results flagged for a closer look

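Among the 8 Wildtype cells between the Fos limits, 26 immediate-early genes were looked at for a cell far from the other 7, and 6 gave one. These 26 include Fos and leave out Egr2, which had no count in these cells. The cutoff used assumes normally distributed values, and many of these values were 0, so no rate by chance can be given. On the log2(CPM + 1) scale, Jun had a lowest cell at 4.54, with the next at 6.398. A single high cell was found for Klf10 at 5.98 (next 2.13), Klf4 at 3.78 (next 0.65), Nr4a1 at 1.97, Socs3 at 1.43 and Csrnp1 at 0.81. For the last 3 genes the other 7 cells had no count, so a few counts in 1 cell set the value.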

How the results depend on the processing

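No paired analysis was possible because the labels name no animals and number no replicates across groups. The shares of tested genes called higher and lower were 1.39 and 0.775% over all Wildtype cells and 2.48 and 1.4% at P26, and both these shares and the counts of genes stayed within the same range (less than 1.5 times apart) under other scalings, other Fos limits, means over cells and cells thinned to 500000 counts. With a minimum of 50 CPM they were 0.755 and 0.252% over all cells and 1.03 and 0.301% at P26, and with 10 CPM added 0.559 and 0.0684%, and 0.811 and 0.137%. They were 3.16 and 1.88% in the Middle, 5.12 and 4.91% in the Base, 5.36 and 4.98% in the Apex, 3.59 and 3.73% at P27 and 3.83 and 3.18% below 2% spike-in. Settings chosen after seeing the data gave 4.21 and 3.08% in Ia-like, 4.42 and 2.31% in Ib-like and 5.42 and 4.01% in Ic-like cells, and 1.53% lower genes in cells with Xist and 1.52% at 2% spike-in or more. At P26 they were 7.37 and 4.52% in the Middle, 5.58 and 4.87% in the Base, 17.3 and 10.5% in the Apex (3 Fos-low cells), 5.20 and 4.69% below 2% spike-in and 6.17 and 2.85% from 2%, 4.83 and 3.88% with Xist, 4.81 and 3.58% in Ia-like, 7.73 and 4.996% in Ib-like and 12.7 and 10.8% in Ic-like cells.

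The median of the AP-1 subunits without Fos was 2.79 over all cells and 2.99 at P26 with a minimum of 1 CPM, and at P26 7.18 in the Middle, 7.08 from 2% spike-in and 7.59 in Ic-like cells. That of the rapid transcription factors was 1.45 and, at P26, 1.76 with 10 CPM added, 3.86 in Ib-like cells and 2.16 at P26 with a minimum of 1 CPM. That of the delayed effectors was -0.074 in P26 Ic-like cells. Of the turn shares, P26 alone moved the Apex to 10.8% of Fos-high and 11.5% of Fos-low cells, and the Base to 31.1% and 57.7%.

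Of 3075 log2 folds of named genes under the alternatives, 2813 moved by less than the spread over cells, 235 by more, and 27 changed sign. Adora1 was 0.65 in the Middle, 1.73 in the Apex and 0.33 at P27, and at P26 2.05 in the Middle, 1.34 in the Apex and 2.07 from 2% spike-in. Zfp626 was 0.44 in the Apex, and at P26 1.404 in the Middle, 2.12 in the Apex and 1.77 from 2% spike-in. Cnot6l was 0.10 in the Apex, 0.45 at P27 and 0.32 in Ic-like cells. Lrrc52 was -0.48 in the Base and -0.31 in Ic-like cells, where Klf10 was -0.12. Myom3 was 0.82 in Ia-like cells (0.62 at P26), Runx1 -0.47 in those of P26 and Plxnc1 0.56 in Ib-like cells. In the P26 Apex, 4930563E22Rik was 1.97, Gpr3 -0.19, Kcnd1 0.17 and Trim54 2.66. Kcnd1 was 0.38 at P26 from 2% spike-in. In P26 Ic-like cells, Zfp128 was 2.35 and 4930563E22Rik 3.09. The cause of these changes was not tested.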

Other observations

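A neighbouring pair of genes that belongs to no list stood among the higher genes, and it was picked out after its values were seen. Dbpht2 and the noncoding gene 1700086L19Rik lie on the plus strand of chromosome 12, with 722 bases between the end of 1700086L19Rik and the start of Dbpht2. 1700086L19Rik had counts in 54 Fos-high cells (13.5 CPM) and in no Fos-low cell, at least 586-fold above 3 counts over that side. Dbpht2 had counts in 62 Fos-high and 4 Fos-low cells, at 71.2 against 4.67 CPM. Its log2 fold was 3.31 at P26 and 5.68 at P27.

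Other higher genes outside the lists, also picked after their values were seen, were Mlf1 (32.98 against 2.17 CPM), the atypical NF-kappaB inhibitor gene Nfkbiz (23.4 against 2.72 CPM), the NF-kappaB subunit gene Rel (10.5 against 3.21 CPM), the Notch target Hes1 (44.6 against 6.98 CPM), the eIF2-alpha phosphatase subunit gene Ppp1r15a (60.7 against 17.9 CPM), the metallothionein gene Mt1 (23.4 against 7.27 CPM) and the replication gene Mcm4 (29.1 against 9.07 CPM). All 7 were called at P26 and at P27. The stretch before Mlf1 holds a whole CRE and a TGANTCA match. Uty, a Y-linked gene, was called higher over all Wildtype cells (22.8 against 7.65 CPM) with no count at P27, beside the uneven sexes of the P26 sides.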
